A study of Mus musculus with 8 samples.

Results

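Autophagy is the route by which a cell encloses part of its own cytoplasm in a double membrane and delivers it to the lysosome for digestion. A kinase complex starts the process, a lipid kinase complex marks the site, lipid-transfer and scramblase proteins feed the growing membrane, and conjugation enzymes attach small ubiquitin-like proteins of the LC3 and GABARAP kind to it. Receptors then tie cargo to these proteins. In the retinal pigment epithelium (RPE), a non-dividing cell layer that digests the shed tips of photoreceptor outer segments for life, parts of the same machinery also act on the phagosomes that hold those tips.

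The autophagy machinery was taken as a list of 38 core factors and receptors, and 37 of these were measured among 18193 genes. A member was measured by the Affymetrix probe sets annotated to it alone, and the brightest of these, by mean log2 intensity, stood for the gene. The receptor Optn had no such probe set in the annotation used and was not analysed here. The list was not chosen by measured values, although other results of these arrays were known when it was drawn up. RPE/choroid from old male C57BL/6 mice aged 26 months was compared with RPE/choroid from young male C57BL/6 mice aged 4 months, on 4 Mouse 430 2.0 arrays for each age. Both ages are of the same strain, the labels name no treatment, and each array held RNA from 4 RPE/choroids of 2 animals, so each array samples 2 mice at once. The comparison asks which transcripts of this tissue differ with age. Values are linear intensities as deposited, and differences are log2 fold changes of old over young from limma with their standard errors (SE), with p-values adjusted over all 45037 probe sets that are not controls.

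The tissue label and the other cells in it were checked on marker genes. Rpe65, the isomerase of the visual cycle, was at a mean of 11066 in old and 11578 in young arrays, on a scale with a highest value of 19749. Of 13 genes listed as RPE markers, 8 were lower in old animals and 0 higher. The 8 include the pigment genes Tyr, Tyrp1, Dct and Pmel, while Rpe65, Best1, Ttr, Rgr and Stra6 were not called. The RPE was not separated from the choroid, so the cells behind these values cannot be told apart. The mean centred log2 level of the RPE list was -0.13 to -0.02 in old and 0.06 to 0.12 in young arrays. Of 19 macrophage markers, 16 were higher and 0 lower, with a list level of 0.35 to 0.75 in old and -0.57 to -0.39 in young arrays. Endothelial markers were lower for 8 of 11 genes, and markers of Mueller glia and inner retina were lower for 7 and higher for 1 of 13. Old replicate 2 had a neutrophil list level of 1.82, beside -0.35 to 0.30 in old replicates 1, 3 and 4. Old replicate 4 had a glial and inner retinal list level of 0.08, beside -0.83 to -0.60 in old replicates 1, 2 and 3. Rod markers, of which 0 of 10 were called (limma, 1 at an unadjusted p under 0.05), were at 0.64 in old replicate 4, beside -0.86 to -0.21 in the remaining old arrays, and at -0.49 in young replicate 4, beside 0.45 to 0.62 in the remaining young arrays. T and NK cell markers were higher for 5 of 9 genes, with a list level of 0.08 to 0.43 in old and -0.30 to -0.22 in young arrays. In whole tissue, fewer cells of a type and less RNA per cell cannot be told apart.

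Transcripts of the autophagy machinery differed little between old and young RPE/choroid. At an adjusted p under 0.05, 5 of 37 genes rose (Vmp1, Sqstm1, Atg7, Ulk1 and Pink1) and 3 fell (Pik3c3, Wipi1 and Atg16l2). The 8 called genes are 21.6% of the members, beside 21.3% of all genes measured, of which 11.8% were higher and 9.56% lower. The share of members called was therefore near that of all genes measured. With a filter on a mean log2 of at least 6, which all 37 members passed, 6 members were higher and 3 lower. Of all genes kept by that filter, 29.4% were called. The fold changes ran from -0.32 for Atg16l2 to 0.38 for Atg7 on the log2 scale, with a median of 0.06 over the members and of -0.02 over all genes. The median size of the change, sign aside, was 0.13 in both. No member (0 of 37, limma) passed the thresholds used in the study (more than 2-fold, adjusted p below 0.01), which 1.23% of all genes passed, and an unadjusted p under 0.05 was found for 15 members (40.5%) beside 37.4% of all genes. The 95% confidence interval of the fold change lay within 1.5-fold in either direction for all 37 members, and for 87.5% of all genes. The ages did not overlap for 13 members, 8 higher and 5 lower in old animals, which is 35.1% of the members beside 29.5% of all genes. Old replicates 2 and 4 were the old arrays with the highest neutrophil and the highest inner retinal markers, respectively. Without both, 2 members were higher and 0 lower, and 9.71% of all genes were called, against 21.3% with all arrays. The number of higher members was 3 without old replicate 2 and 3 without old replicate 4, where 15.5% and 17.1% of all genes were called. The number of lower members was 1 without old replicate 2, old replicate 3, young replicate 1 or young replicate 3. In these fits 15.5%, 13.3%, 14.4% and 13.6% of all genes were called, in the same order.

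**Figure D1:**
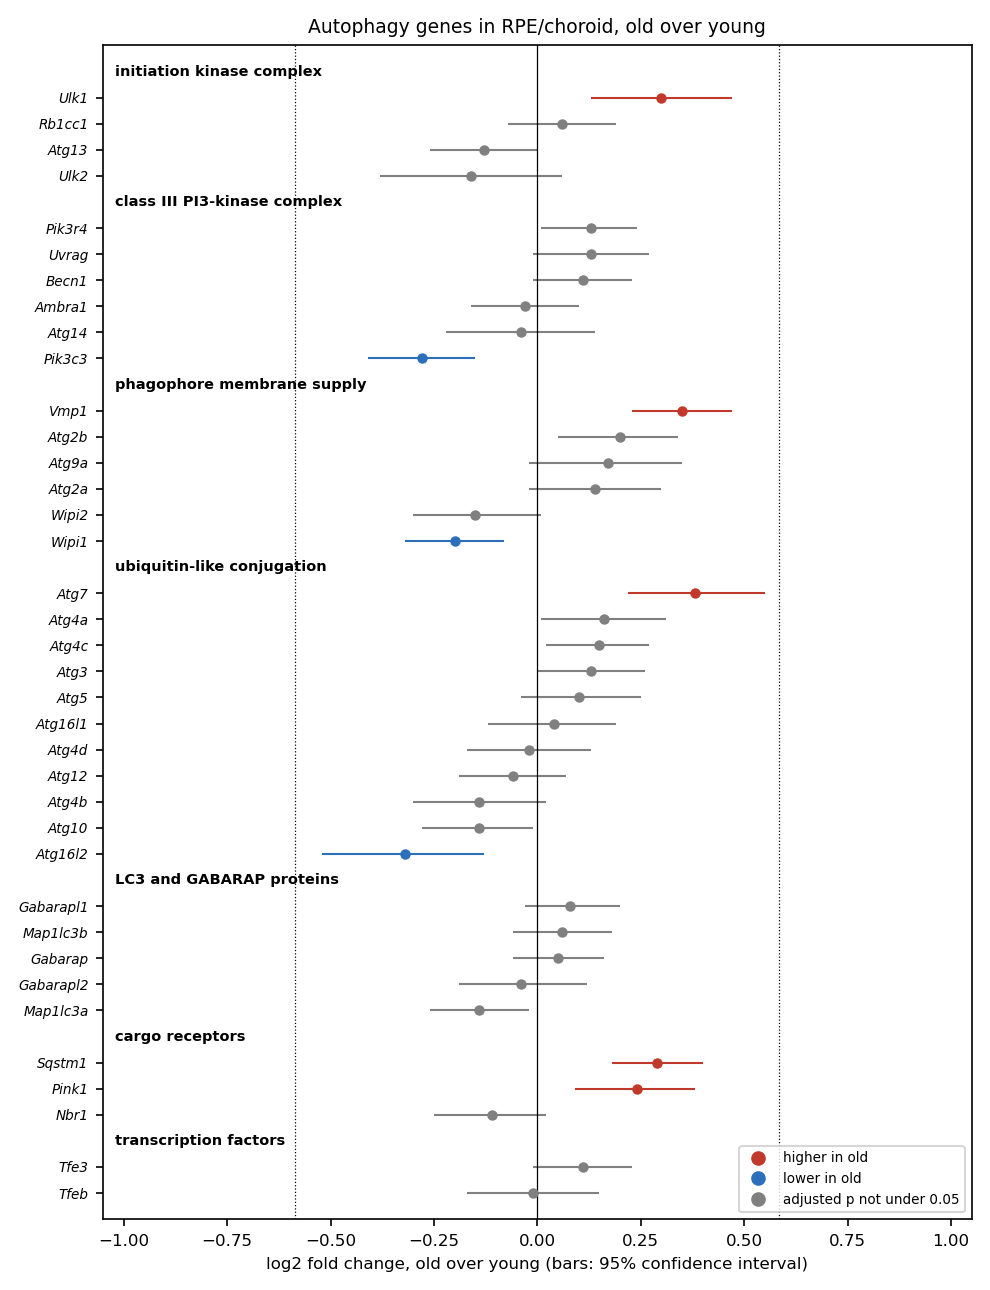
Log2 fold change of old over young RPE/choroid (horizontal axis) for the 37 measured autophagy genes, grouped by role, with 95% confidence intervals as bars and dotted lines at 1.5-fold in either direction. All intervals lie between the dotted lines, and the 8 coloured genes, from -0.32 (Atg16l2) to 0.38 (Atg7), passed an adjusted p of 0.05.

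The initiation complex joins the kinases Ulk1 and Ulk2 to the scaffolds Atg13 and Rb1cc1 (also called FIP200). Of its 4 genes 1 rose and 0 fell. Ulk1 was at 386, 485, 422 and 456 in old arrays, against 341, 349, 365 and 360 in young arrays. All 4 old arrays lay above all young arrays, with old replicate 1 nearest to them. The log2 fold change of Ulk1 was 0.30 (SE 0.07, limma adjusted p = 0.0235). The call was lost without old replicate 2 (adjusted p = 0.0516), old replicate 4 (adjusted p = 0.0589) or young replicate 1 (adjusted p = 0.0621), with log2 fold changes of 0.25 to 0.28. Without old replicates 2 and 4 the fold change was 0.19 (adjusted p = 0.156). Its homologue Ulk2 had a fold change of -0.16 with overlapping ages, since old replicate 1 at 597 stood above the highest young array (557) while old replicates 2 to 4 had 429 to 460. Atg13 had a log2 fold change of -0.13 and Rb1cc1 of 0.06. A second probe set of Rb1cc1 fell, with 169, 175, 140 and 150 in old arrays and 217, 248, 185 and 189 in young arrays, a log2 fold change of -0.40 (adjusted p = 0.0337), so the probe sets of this gene disagree.

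The lipid kinase complex makes the phosphatidylinositol 3-phosphate that recruits later factors. Pik3c3 (Vps34) is its catalytic subunit, Pik3r4 its regulatory subunit and Becn1 its scaffold, with Atg14 or Uvrag setting where it acts and Ambra1 regulating Becn1. Of these 6 genes 1 fell and 0 rose. Pik3c3 was at 492, 507, 471 and 463 in old arrays, against 577, 552, 597 and 618 in young arrays. The ages were apart, the highest old array at 507 and the lowest young one at 552. Pik3c3 fell by 0.28 on the log2 scale (SE 0.06, limma adjusted p = 0.012), and it has no other probe set here. With old replicates 2 and 4 left out its adjusted p was 0.0632 at the same log2 fold change of -0.28. Becn1 was at 1555, 1516, 1413 and 1515 in old arrays, against 1347, 1354, 1407 and 1432 in young arrays. The ages overlapped for Becn1 through old replicate 3, and its log2 fold change of 0.11 (95% confidence interval -0.01 to 0.23, adjusted p = 0.169) did not pass. The other 4 genes of the complex ran from -0.04 for Atg14 to 0.13 for Pik3r4 and Uvrag. Pik3r4 was higher in each old array, at 381 to 414 against 350 to 366 in young arrays, at an adjusted p of 0.118. Of the 5 probe sets of Becn1, a dim one at 18.4 to 23.5 in old and 14.4 to 18.1 in young arrays rose by 0.36 (adjusted p = 0.0307), while the 3 remaining ones had log2 fold changes of 0.01 to 0.08.

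Of the 6 genes that supply or shape the growing membrane, 1 rose and 1 fell. Vmp1, a lipid scramblase of the endoplasmic reticulum needed for autophagosome formation, was at 2063, 2153, 2102 and 2162 in old arrays, against 1655, 1759, 1664 and 1583 in young arrays. The gap between the ages was wider than the range within either of them. Vmp1 had the smallest adjusted p of all members, with a log2 fold change of 0.35 (SE 0.05, limma adjusted p = 0.00265), 1.27-fold, and passed under each of the 19 alternative settings tried. A dimmer probe set of Vmp1 had a fold change of 0.10 (adjusted p = 0.345). Wipi1, a propeller protein that binds phosphatidylinositol 3-phosphate, was at 1278, 1282, 1295 and 1363 in old arrays, against 1548, 1434, 1491 and 1523 in young arrays. Each old array lay below each young array. Wipi1 fell by 0.20 on the log2 scale (SE 0.05, limma adjusted p = 0.0272), and 2 of its 5 other probe sets fell too, by 0.19 and 0.31. The call of Wipi1 was lost without old replicate 2, old replicate 3, young replicate 1, young replicate 3 or young replicate 4 (adjusted p from 0.0611 to 0.0698, log2 fold changes of -0.20 to -0.18), and without old replicates 2 and 4 (adjusted p = 0.0959). The lipid-transfer protein gene Atg2b was at 186 to 196 in old and 155 to 184 in young arrays, with no overlap and an adjusted p of 0.0602. Atg2a, the scramblase gene Atg9a and Wipi2 had log2 fold changes of 0.14, 0.17 and -0.15, with overlapping ages.

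**Figure D2:**
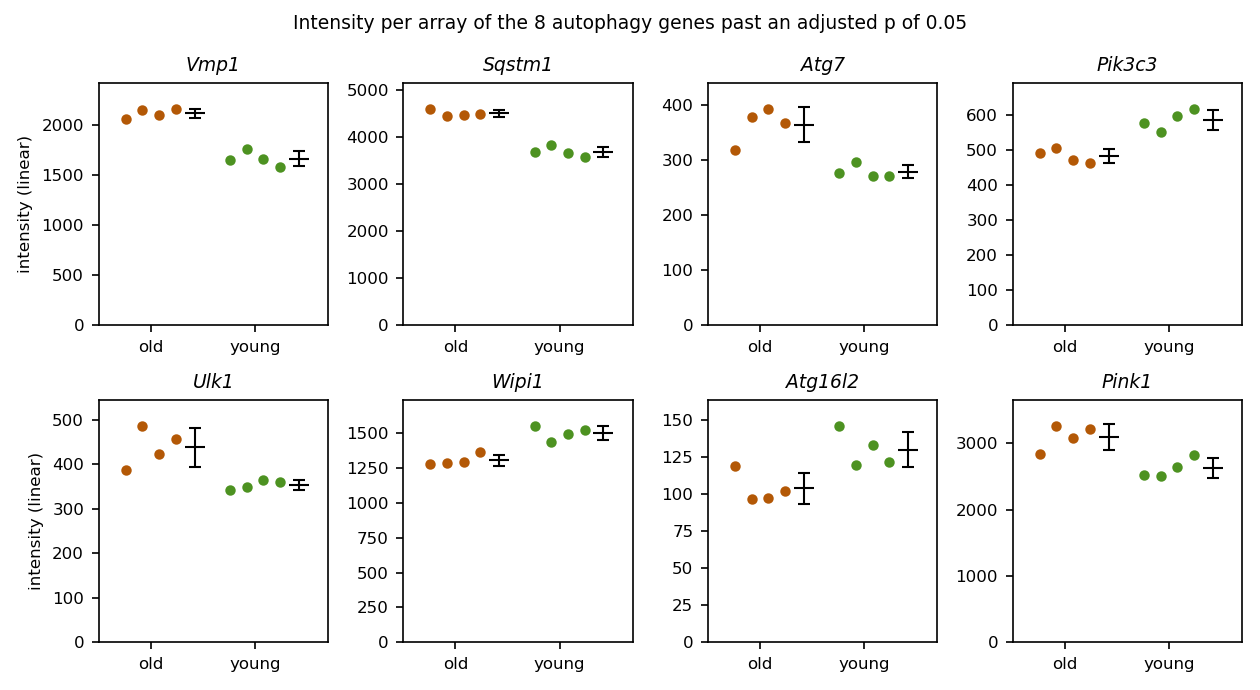
Linear intensity per array (vertical axis, from 0) of the 8 autophagy genes past an adjusted p of 0.05, with points for replicates 1 to 4 of each age from left to right and the mean with its SD (n = 4) beside them. The ages do not overlap in any of the 8 panels, and the gap is widest relative to the spread in Vmp1 (2063 to 2162 in old, 1583 to 1759 in young arrays) and Sqstm1 (4445 to 4602 in old, 3569 to 3839 in young arrays).

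Conjugation of the ubiquitin-like proteins runs through Atg7, the E1-like enzyme that activates both Atg12 and the LC3 and GABARAP proteins, the E2-like enzymes Atg3 and Atg10, the Atg12-Atg5-Atg16l1 complex, and the Atg4 proteases that trim LC3 and release it again. Of these 11 genes 1 rose and 1 fell. Atg7 was at 319, 378, 393 and 368 in old arrays, against 276, 297, 272 and 271 in young arrays. Old replicate 1 was the lowest of the old arrays and still above every young one. The log2 fold change of Atg7 was 0.38 (SE 0.07, limma adjusted p = 0.00843), 1.30-fold. Its probe sets did not move alike, since the 3 others had log2 fold changes of -0.08, 0.20 and -0.17 (adjusted p from 0.0553 to 0.475), and the mean over all 4 had one of 0.08 (adjusted p = 0.247). Without old replicates 2 and 4 the log2 fold change of Atg7 was 0.34 (adjusted p = 0.0775). Atg16l2, a homologue of Atg16l1, was at 119, 97.1, 97.7 and 102 in old arrays, against 146, 120, 133 and 122 in young arrays. Old replicate 1 at 119 nearly met young replicate 2 at 120. Atg16l2 fell by 0.32 (SE 0.09, limma adjusted p = 0.0325). Without old replicate 2, old replicate 3, old replicate 4, young replicate 1 or young replicate 3 its adjusted p was 0.0697 to 0.0874 (log2 fold changes of -0.32 to -0.27), without old replicates 2 and 4 it was 0.196, and by the mean of its probe sets 0.258 (log2 fold change of -0.17). Atg5 was at 468, 398, 433 and 416 in old arrays, against 384, 414, 410 and 386 in young arrays. The ages overlapped for Atg5, and its log2 fold change was 0.10 (95% confidence interval -0.04 to 0.25, adjusted p = 0.295). Another probe set of Atg5 was higher in each old array, at 425 to 461 against 356 to 405 in young arrays, with a log2 fold change of 0.20 (adjusted p = 0.0411). The other 8 genes ran from -0.14 for Atg4b and Atg10 to 0.16 for Atg4a. Of the 4 protease genes, Atg4a and Atg4c lay above 0, at 0.16 and 0.15, and Atg4b and Atg4d below it, at -0.14 and -0.02, and none of the 4 passed the test (limma, an unadjusted p of 0.0399 for Atg4a, 0.0277 for Atg4c, 0.0723 for Atg4b and 0.737 for Atg4d).

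The regulators Tfeb and Tfe3, basic helix-loop-helix factors that switch on lysosomal and autophagy genes, bind the E-box letters CACGTG, most strongly within a longer palindrome known as the CLEAR motif. Promoter windows of 300 bases, from 250 before to 50 after a transcription start, were read from RefSeq (GRCm38.p6). For the listed genes 40 windows were used, from 32 of the 38 genes. Windows of listed genes on a particular chromosome were left out, while the set of all windows kept that chromosome. A listed gene missing from the 40 windows may therefore still have a promoter window that was not searched. CACGTG, which reads the same on both strands, occurred in 4 of these 40 windows (10%) and in 7.15% of all 32851 windows. The CLEAR palindrome occurred in 0 of the 40 and in 0.326% of all windows. The windows of Atg7, Atg5, Atg14 and Atg3 held CACGTG, that of Atg3 at 2 places. The sites are shown with 12 bases on either side, 5′ to 3′ along the gene's strand and with CACGTG in capitals. They are the places in the 40 windows where the letters were found. Atg7 was the only one of these 4 genes past the test, and a match is no evidence of binding.
Atg7, chr6:114670952-114670981, + strand: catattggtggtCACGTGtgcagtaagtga
Atg5, chr10:44268313-44268342, + strand: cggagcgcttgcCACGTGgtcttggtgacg
Atg14, chr14:47568418-47568447, - strand: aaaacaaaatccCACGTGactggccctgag
Atg3 first site, chr16:45158723-45158752, + strand: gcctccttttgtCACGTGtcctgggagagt
Atg3 second site, chr16:45158746-45158775, + strand: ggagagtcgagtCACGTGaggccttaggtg

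The whole windows of Atg7 and of the receptor gene Sqstm1, a pair of genes that rose, are given to show the surroundings, with CACGTG in capitals where it occurs. In Atg7 it begins 132 bases before the transcription start. The window of Sqstm1 does not hold these letters.
Atg7, chr6:114670846-114671145, + strand: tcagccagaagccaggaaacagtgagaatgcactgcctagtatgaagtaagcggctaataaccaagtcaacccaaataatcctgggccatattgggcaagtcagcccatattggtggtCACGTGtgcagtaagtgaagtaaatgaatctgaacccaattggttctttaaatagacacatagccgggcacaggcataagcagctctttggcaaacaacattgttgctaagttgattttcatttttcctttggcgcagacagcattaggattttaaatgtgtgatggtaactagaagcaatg
Sqstm1, chr11:50210771-50211070, - strand: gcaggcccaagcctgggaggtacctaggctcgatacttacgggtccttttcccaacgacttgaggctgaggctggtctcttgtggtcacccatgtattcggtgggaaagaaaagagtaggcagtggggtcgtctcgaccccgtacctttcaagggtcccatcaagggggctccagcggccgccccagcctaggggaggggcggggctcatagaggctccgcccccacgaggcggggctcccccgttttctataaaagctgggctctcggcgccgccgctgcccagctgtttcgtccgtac

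LC3 and GABARAP proteins are joined to a membrane lipid and hold the receptors. None of the 5 genes passed the test by the probe set of highest mean (0 of 5, limma), and 1, Map1lc3a, had an unadjusted p under 0.05. With trend and robust estimation in limma that probe set of Map1lc3a passed (adjusted p = 0.031). Map1lc3b was at 5274, 5679, 5034 and 5230 in old arrays, against 5055, 5151, 4952 and 5168 in young arrays, a log2 fold change of 0.06 (95% confidence interval -0.06 to 0.18, adjusted p = 0.475). Gabarap was at 6210, 5825, 6102 and 6151 in old arrays, against 6046, 5720, 5778 and 5905 in young arrays, a log2 fold change of 0.05 (95% confidence interval -0.06 to 0.16). The ages overlapped for both. Gabarapl1 had 4108, 4135, 3929 and 4280 in old arrays, against 3936, 3944, 3879 and 3750 in young arrays, a log2 fold change of 0.08 (95% confidence interval -0.03 to 0.20). For Gabarapl2 the values were 1906, 1687, 1685 and 1761 in old arrays, against 1847, 1953, 1741 and 1676 in young arrays, a log2 fold change of -0.04 (95% confidence interval -0.19 to 0.12). These 2 genes overlapped between the ages as well. Map1lc3a was at 4616, 4380, 4280 and 4515 in old arrays, against 5229, 4694, 4826 and 4858 in young arrays, a log2 fold change of -0.14 (95% confidence interval -0.26 to -0.02, adjusted p = 0.112). Here each old array lay below each young array, though by a narrow margin.

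Other probe sets of the LC3 genes gave larger differences. All 3 remaining probe sets of Map1lc3b rose. The brightest of them was at 3162, 3672, 3147 and 3150 in old arrays, against 2496, 2728, 2651 and 2699 in young arrays, a log2 fold change of 0.31 (SE 0.07, limma adjusted p = 0.0137), and the other two had log2 fold changes of 0.20 and 0.22 (adjusted p = 0.0183 and adjusted p = 0.0326). In each of the 3, all old arrays were above all young arrays. The second probe set of Map1lc3a fell by 0.34 (adjusted p = 0.00824), with 1487, 1254, 1342 and 1341 in old arrays and 1764, 1797, 1688 and 1625 in young arrays. Averaged over its probe sets, Map1lc3b had a log2 fold change of 0.20 (adjusted p = 0.0146) and Map1lc3a one of -0.24 (adjusted p = 0.00956). A second probe set of Gabarapl1 rose by 0.22 (adjusted p = 0.0339), and that of Gabarapl2 had a log2 fold change of 0.32 (adjusted p = 0.0503) where the brighter one had -0.04. Over all members, 27 had several probe sets, and for 15 of the 27 these lay on both sides of 0. Of the 85 member probe sets, 11 were higher and 7 lower, 21.2% in all, beside 19.7% of all probe sets with 1 gene (10.5% higher, 9.14% lower). At least 1 probe set was called for 14 members (37.8%), 9 higher and 5 lower. The share of all genes was 29.1% (15.2% with a higher and 14.5% with a lower probe set). A gene with more probe sets has more chances of a call, and these shares were not matched for that number.

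**Figure D3:**
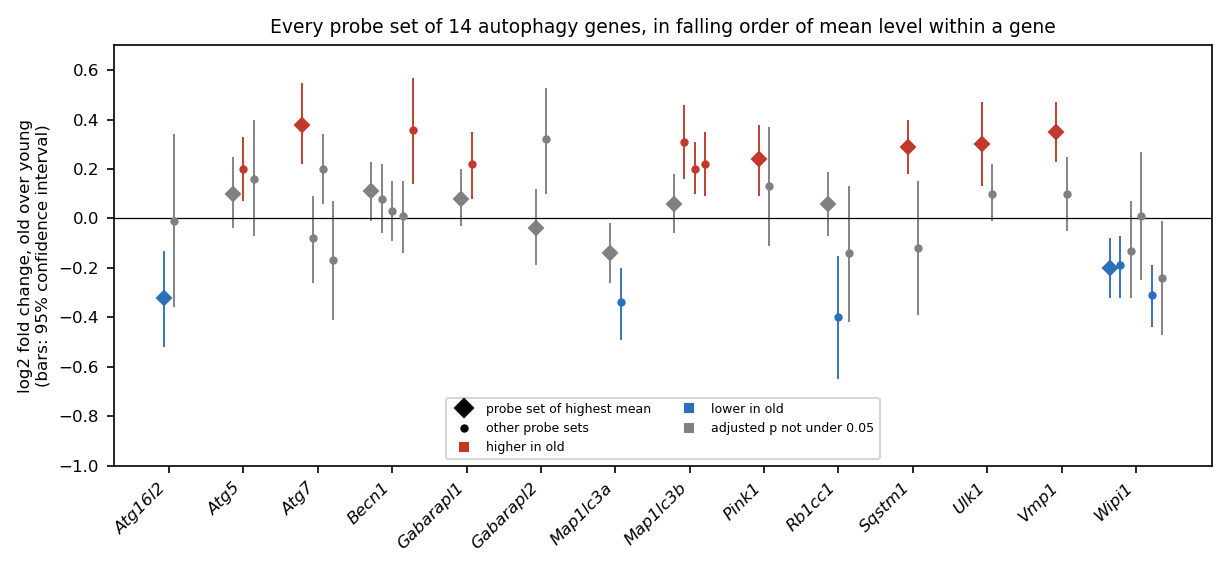
Log2 fold change of old over young (vertical axis, bars for the 95% confidence interval) of every probe set of 14 autophagy genes, with a diamond for the probe set of highest mean and dots for the others. The 3 other probe sets of Map1lc3b lie at 0.20 to 0.31 beside 0.06 for its diamond, and the second of Map1lc3a at -0.34 beside -0.14.

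Of the 3 measured genes of cargo receptors and of the mitophagy kinase, 2 rose and 0 fell. Sqstm1 (p62), which binds ubiquitin and LC3 and is itself degraded by autophagy, was at 4602, 4445, 4482 and 4502 in old arrays, against 3688, 3839, 3665 and 3569 in young arrays. The gap between the ages was again wider than the range within either of them. Sqstm1 rose by 0.29 on the log2 scale (SE 0.05, limma adjusted p = 0.00442), 1.22-fold, and lost the call in 1 of 19 alternatives, the mean with its second, dim probe set (log2 fold change of 0.08, adjusted p = 0.43). That probe set alone had a log2 fold change of -0.12 (adjusted p = 0.518). Pink1, the kinase that marks damaged mitochondria for autophagy, was at 2834, 3260, 3076 and 3215 in old arrays, against 2525, 2507, 2651 and 2827 in young arrays. Old replicate 1 at 2834 lay just above young replicate 4 at 2827. Its log2 fold change was 0.24 (SE 0.07, limma adjusted p = 0.0367). The call of Pink1 was lost without old replicate 2, 3 or 4 and without young replicate 1, 2 or 3 (adjusted p from 0.0741 to 0.0899, log2 fold changes of 0.21 to 0.24), without old replicates 2 and 4 (adjusted p = 0.239), and under quantile normalization (log2 fold change of 0.18, adjusted p = 0.0902) and by the mean of its probe sets (adjusted p = 0.128). Nbr1, a receptor related to Sqstm1, had a log2 fold change of -0.11 (95% confidence interval -0.25 to 0.02), with 1500 to 1705 in old and 1678 to 1785 in young arrays.

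Neither transcription factor of the list passed the test (0 of 2, limma, and 0 of 2 at an unadjusted p under 0.05). Tfeb was at 363, 403, 380 and 366 in old arrays, against 363, 349, 386 and 424 in young arrays. The means of 378 in old and 381 in young arrays were nearly the same, and the log2 fold change was -0.01 (95% confidence interval -0.17 to 0.15, adjusted p = 0.955). Tfe3 was at 423, 457, 460 and 452 in old arrays, against 404, 439, 407 and 413 in young arrays. The ages overlapped through old replicate 1 and young replicate 2, and the log2 fold change of Tfe3 was 0.11 (95% confidence interval -0.01 to 0.23, adjusted p = 0.2).

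The mean centred level of the members and that of the cell markers can be set side by side. The mean centred log2 level of the 37 genes was between 0.00 and 0.04 in old arrays, with old replicate 3 the lowest, and at -0.02 in every young array. On the same scale the macrophage list was at 0.35 to 0.75 in old and -0.57 to -0.39 in young arrays, and the RPE list at -0.13 to -0.02 in old and 0.06 to 0.12 in young arrays. Sqstm1, Vmp1 and Atg7 are used by macrophages and RPE cells alike, and the part of a changed share of macrophages in their rise was not tested.

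A second list held 73 other pathway genes, of which 71 were measured, and it too was drawn up with earlier results known. In old animals 20 of the 71 were higher and 7 lower, 38% in all beside 21.3% of all genes. The median log2 fold change of the list was 0.04. With the filter on a mean log2 of at least 6, which all 71 passed, 26 were higher and 10 lower. Of all genes kept by that filter, 29.4% were called. The largest change was that of Tfec, a relative of Tfeb and Tfe3 known from macrophages, which was at 171, 202, 212 and 200 in old arrays, against 66.5, 80.1, 72.7 and 69.1 in young arrays. Tfec rose by 1.44 on the log2 scale (SE 0.08, limma adjusted p = 3.34e-05). It was the only gene of this list past the study's thresholds. Mtor, the kinase that holds autophagy in check, fell by 0.62 (adjusted p = 0.00218), with 569 to 778 in old and 988 to 1075 in young arrays. Of its 3 probe sets, another had a log2 fold change of 0.10 (adjusted p = 0.389). The mean over all 3 had one of -0.26 (limma adjusted p = 0.0157). Deptor, an inhibitor of Mtor, rose by 0.80 (adjusted p = 0.000645), with 851 to 1160 in old and 537 to 586 in young arrays, and 3 of its 5 other probe sets rose by 0.81 to 0.93. Ddit4, another inhibitor of Mtor signalling, had a log2 fold change of 0.60 and overlapping ages (adjusted p = 0.0726). Rragc, a GTPase that brings Mtor to the lysosome, rose by 0.55, with 2364 to 2858 in old and 1751 to 1830 in young arrays. Fnip1, a partner of folliculin on the same surface, rose by 0.46, with 992 to 1060 in old and 676 to 802 in young arrays. Trp53inp1, a p53 target that binds LC3, rose by 0.83, with 1217 to 1801 in old and 827 to 859 in young arrays. Sh3glb1, a membrane-bending partner of Becn1 and Uvrag, rose by 0.65, with 2305 to 3022 in old and 1649 to 1724 in young arrays. Epg5, a tether of autophagosomes to late endosomes, fell by 0.66 (adjusted p = 0.000479), with 226 to 263 in old and 353 to 407 in young arrays. The calls of the 8 genes named here as past the test held in all 19 alternatives. By the mean of all probe sets, however, the log2 fold change was 0.35 for Sh3glb1, -0.26 for Mtor, 0.49 for Trp53inp1 and 0.53 for Deptor. In addition, the number of higher genes of the list dropped to 11 without old replicate 3, 12 without young replicate 3 and 13 without young replicate 4. It was 8 without old replicates 2 and 4 together. Over all genes, the higher ones numbered 1475, 1493, 1677 and 1067 in these fits, in the same order, against 2145 with all arrays.

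**Figure D4:**
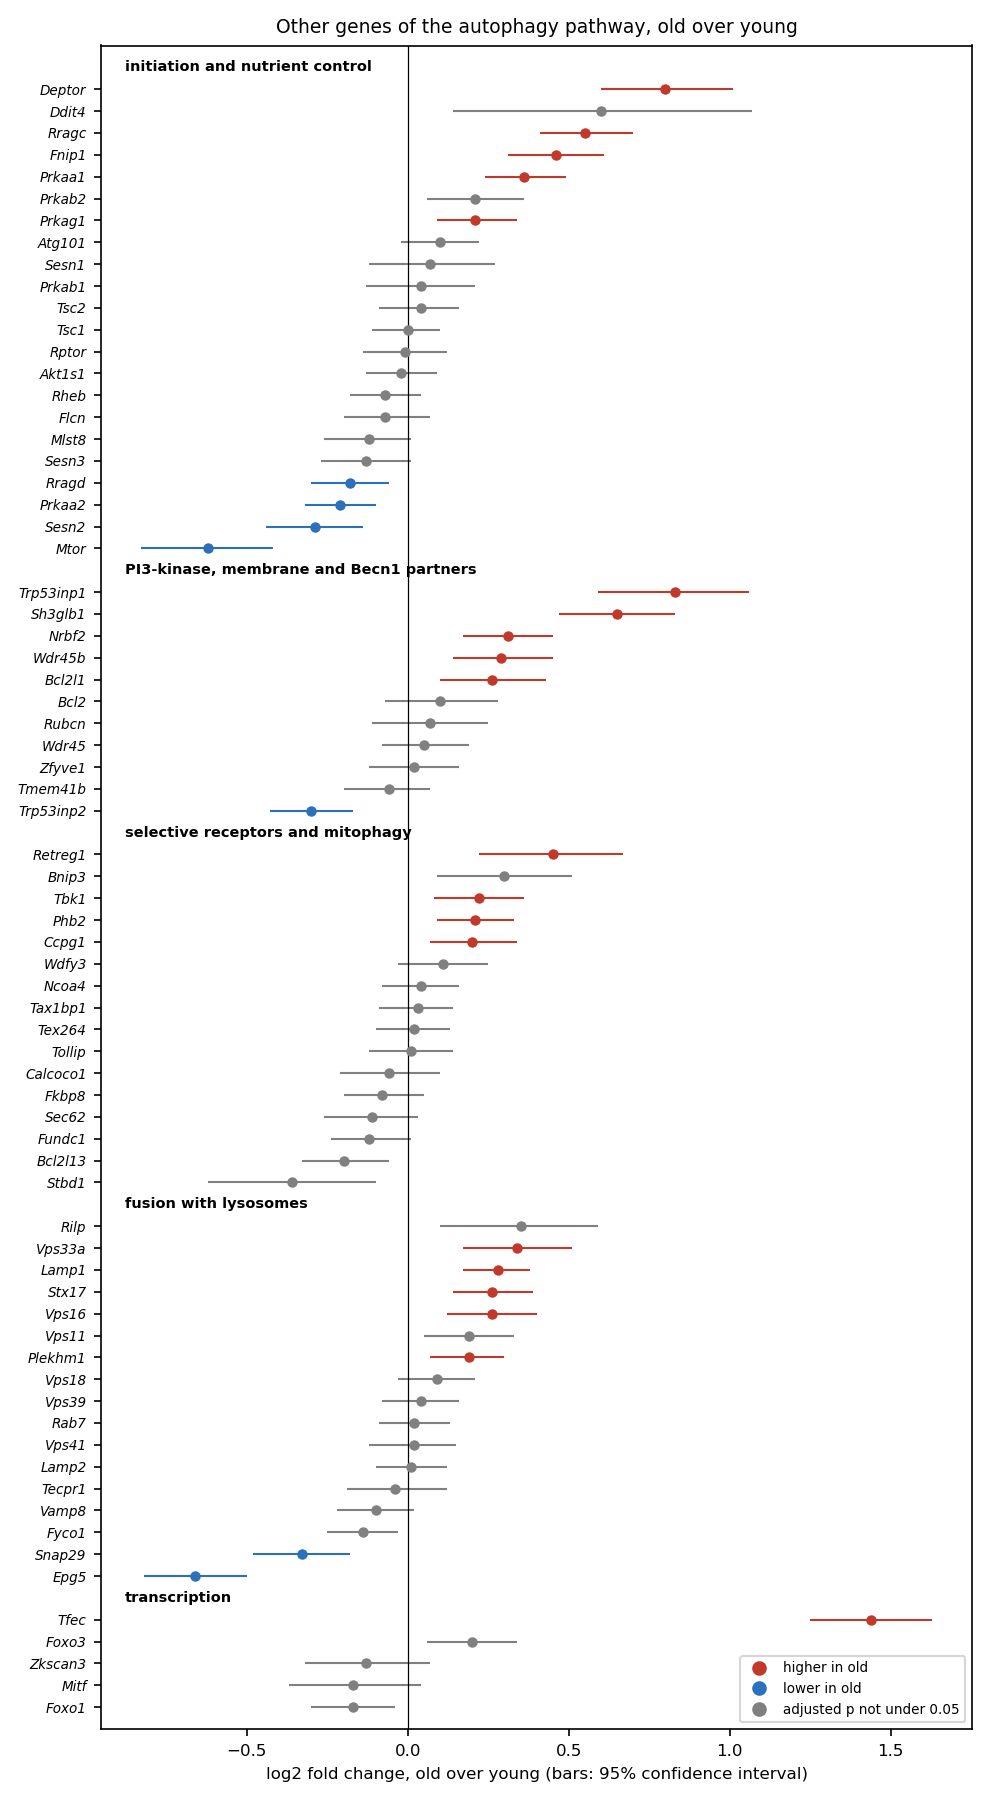
Log2 fold change of old over young RPE/choroid (horizontal axis, bars for the 95% confidence interval) of the 71 measured genes of the second list, grouped by role. Tfec lies apart at 1.44, and Epg5 (-0.66) and Mtor (-0.62) are the lowest.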

How the data were processed

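RNA of RPE/choroid was hybridized by the authors to 8 Affymetrix Mouse 430 2.0 arrays. The deposited intensity values are linear and were normalized by the authors with a procedure not named in the table. Their methods give RMA, invariant set normalization in Dchip2006 and BRB-ArrayTools as routes. Array medians were 129 to 135, and arrays of 1 age correlated at 0.991 or more. The number of arrays limits the precision of every value.

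Intensities were floored at 1 before taking log2. Then limma 3.58.1 in R 4.3.3 (lmFit, eBayes) was fitted to 45037 probe sets, old against young, without covariates, and tested on simulated data. The table holds 45101 probe sets, and the 64 controls did not enter. By the platform annotation 34945 probe sets had 1 gene, 932 had several and 9160 had none. Calls were made at an adjusted p (Benjamini-Hochberg) under 0.05. The members and lists were chosen with earlier results of these data known. Array values are given for members past the test and for 12 core members fixed by name, and of the other pathway genes for the 8 with the largest change among those past the test, as per-array values or ranges. Detection calls were not used here. The settings tried were a filter on low values, an offset of 16 added to the intensity, quantile normalization, median centring, trend and robust estimation, array weights, a replicate block, leaving out arrays, other choices of probe set and an adjusted p under 0.01. P-values measure the spread between pooled samples of 2 animals each.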

Additional observations from a re-analysis of the deposited data

How the results depend on the processing

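The calls of Vmp1, and the count of 0 members more than 2-fold changed at an adjusted p below 0.01, held under every alternative, and the changes of called members kept their sign in all of them. The higher members numbered 8 with array weights, 9 by the probe set of smallest p, 3 by the mean of all probe sets and 3 at an adjusted p under 0.01, against 5 in the reported fit. All genes called were 27.9% with array weights and 29.1% by the probe set of smallest p, against 21.3%. The lower members, 3 in the reported fit, numbered 4 with trend and robust estimation, 5 by the probe set of smallest p and 0 at an adjusted p under 0.01. The median log2 fold change of the members was 0.04 under quantile normalization and by the mean of all probe sets, 0.09 under median centring and 0.13 by the probe set of smallest p. Of all called genes, 55.2% were higher in the reported fit, 48.3% under quantile normalization, 64.8% under median centring and 67.7% at an adjusted p under 0.01. Among the other pathway genes, 9 were higher and 3 lower at an adjusted p under 0.01, and 11 were lower with trend and robust estimation. Leaving out each array in turn gave 3 to 5 higher and 1 to 4 lower members and a median of 0.04 to 0.07. It gave 11 to 22 higher and 5 to 9 lower other genes, with 13.3% to 21.9% of all genes called. When old replicates 2 and 4 were both left out (a setting added once the data had been seen), 2 members were higher and 0 lower, and 8 other genes were higher and 3 lower. In that fit 1767 of all genes were called, with 6 arrays in place of 8, against 3884 in the reported fit, 1577 at an adjusted p under 0.01, 2428 without old replicate 3 and 2483 without young replicate 3. With the replicate number as a block, 4 members were higher and 2 lower, and 13 other genes were higher and 5 lower, with 16% of all genes called. Wipi1 (adjusted p = 0.0661) and Pink1 (adjusted p = 0.0564) lost their calls under the block. Deviations from the age means correlated between same-numbered arrays at 0.0971, 0.0191, 0.0219 and 0.0427, so the numbers were not taken as pairs. Tfeb, never called, changed sign to 0.02 under median centring, 0.01 without old replicate 1 or old replicate 4, 0.00 without young replicate 3 and 0.05 without young replicate 4, within -0.05 to 0.05 when single arrays were left out. Gabarapl2, never called, ran from -0.07 to 0.00 (without young replicate 2) when single arrays were left out, and was 0.32 by the probe set of smallest p and 0.14 by the mean of its probe sets. The causes of these differences were not tested.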

Other observations

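Within 3 gene families of the second list, homologues changed in opposite directions. These genes were chosen after their values were seen. Prkaa1, a catalytic subunit of the energy sensor AMPK, which phosphorylates Ulk1, was at 574, 532, 536 and 543 in old arrays, against 401, 420, 440 and 441 in young arrays. It rose by 0.36 on the log2 scale (SE 0.06, limma adjusted p = 0.0029). The alternative catalytic subunit Prkaa2 was at 568, 591, 566 and 564 in old arrays, against 650, 640, 675 and 680 in young arrays, and fell by 0.21 (SE 0.05, limma adjusted p = 0.0202). All 3 probe sets of Prkaa2 fell. The call of Prkaa2 was lost without old replicate 3, old replicate 4, young replicate 3 or young replicate 4 (adjusted p from 0.0532 to 0.0626), without old replicates 2 and 4 (adjusted p = 0.0911), with the replicate block (adjusted p = 0.0656) and at an adjusted p under 0.01, while that of Prkaa1 held under all 19 alternatives.

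Trp53inp1 was at 1217, 1801, 1565 and 1459 in old arrays, against 859, 832, 849 and 827 in young arrays, with the widest spread among the old ones. Its homologue Trp53inp2, which also binds LC3 and takes part in autophagosome formation, was at 1323, 1169, 1255 and 1346 in old arrays, against 1562, 1550, 1578 and 1569 in young arrays. Trp53inp2 fell by 0.30 (SE 0.06, limma adjusted p = 0.0086), and its second probe set fell by 0.39 (adjusted p = 0.0148). By the mean of all probe sets the log2 fold change was -0.35 for Trp53inp2 and 0.49 for Trp53inp1, against 0.83 for the brightest probe set of Trp53inp1. The calls of both genes held under all 19 alternatives.

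Rragc rose, as given above, and its homologue Rragd was at 2925, 2606, 2691 and 2749 in old arrays, against 3043, 3146, 3120 and 3127 in young arrays. Rragd fell by 0.18 (SE 0.05, limma adjusted p = 0.0441). Its call was lost in 12 of 19 alternatives, among them leaving out any single array other than old replicate 1 (adjusted p from 0.0727 to 0.107).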
